A study of Mus musculus with 9 samples.

Results

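Muscle constructs that had been irradiated were compared with normal ones over all genes, in 6 of the 9 libraries of the series. The 6 were chosen by their labels alone, 3 from constructs made senescent by X-rays, 20 Gy given once, and 3 from constructs that were not irradiated. All held wild-type C2C12 cells in a gel of matrix taken from muscle tissue. C2C12 is a line of mouse myoblasts, which stop dividing and fuse to multinucleated myotubes once growth medium is removed. Both groups spent 2 days in growth medium with fetal bovine serum and 10 days in differentiation medium with 10% equine serum, and both media held penicillin and streptomycin. The labels do not say when in this time the dose was given. The remaining 3 libraries, called cocultured, came from normal constructs that shared a dish with an irradiated one. They are not compared here, but they enter the filter on low counts, the scaling and the estimate of the spread between replicates. With them 11980 genes were tested, and 10653 without them. Because C2C12 is 1 cell line, the replicates are constructs and not animals. 2 constructs of a condition shared a dish, so some replicates may be dish partners. P-values therefore measure only how far these samples spread, which may be technical. The series design text counts 2 samples in each of the compared groups, while the labels give 3, and all 3 were used.

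Ionising radiation breaks DNA, and the damage signal stabilises p53, which raises the cyclin-dependent kinase inhibitor p21 and can halt division for good. Cells in this senescent state are known to lose nuclear lamin B1, to enlarge their lysosomes and to secrete cytokines, proteases, growth factors and matrix proteins, the senescence-associated secretory phenotype. In muscle, myoblasts leave the cell cycle anyway when they fuse, so that a differentiated construct holds myotubes, which do not divide, together with unfused cells that may. Transcripts were counted from their 3' ends, and a construct is a bulk sample: fewer cells of a type and less RNA per cell cannot be told apart.

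Depth was 4840993 to 6607557 counts in normal and 6485655 to 8290468 in irradiated libraries, and composition differed within both groups. Over the tested genes the irradiated libraries were no closer to each other than to normal 1 and 2. Spearman rank correlations of irradiated 1 were 0.682, 0.712 and 0.711 with normal 1, 2 and 3, and 0.634 and 0.641 with irradiated 2 and 3. Irradiated 2 and 3 correlated at 0.635, and pairs of normal libraries at 0.709 to 0.826. Normal 3 and irradiated 1 stood apart in muscle fibre transcripts. The list of adult sarcomere and Z-disc genes took 18.0% of the counts of normal 3 and 14.0% of irradiated 1, against 1.20% to 3.15% in the other 4. Myh4, the fast myosin of adult fibres, was at 856, 1474 and 51516 CPM (counts scaled to a common, TMM-adjusted library size) in normal 1, 2 and 3 and at 29361, 2538 and 2124 CPM in irradiated 1, 2 and 3. The same 2 libraries held most of the counts of Egfl7, a marker of endothelial cells (4.11, 3.41 and 91.9 CPM in normal and 62.6, 6.58 and 0 CPM in irradiated constructs), and of Abcc9, a marker of pericytes (0, 0 and 44.9 CPM in normal and 61.3, 0 and 0 CPM in irradiated constructs). Irradiated 2 and 3 stood apart in breadth. Thinned to 4840993 counts, they gave 8019 and 8398 detected genes, irradiated 1 gave 10922 and the normal libraries 11102 to 14159. Another set held 2963 genes with a mean of 20 to 50 CPM over the normal and cocultured libraries. Choosing them there favours fewer zeros in normal than in irradiated libraries, by an amount that was not tested. Of these genes 20.5% and 17.1% had no count in irradiated 2 and 3, against 5.23% in irradiated 1 and 0.0675% to 3.24% in normal libraries. Whether these libraries were prepared apart is not given in the sources used here.

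**Figure D1:**
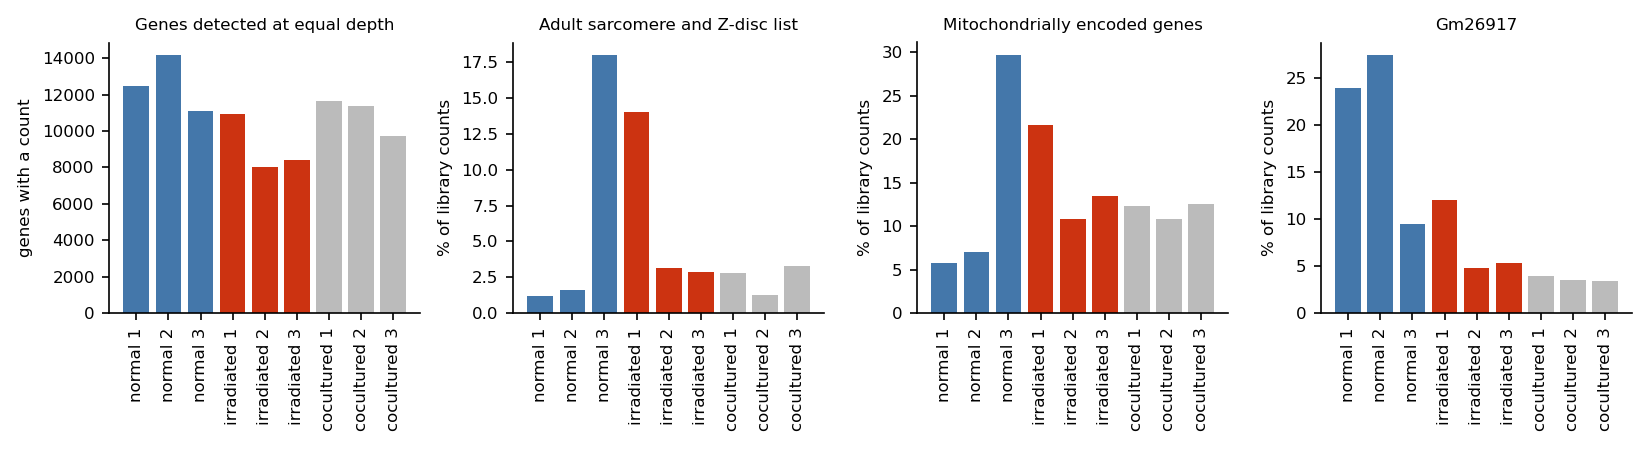
Bars give, for each of the 9 libraries, the genes detected at an equal depth of 4840993 counts and the percentage of counts taken by the adult sarcomere and Z-disc list, by mitochondrially encoded genes and by the predicted gene Gm26917 (blue normal, red irradiated, grey cocultured). Normal 3 and irradiated 1 are the highest in sarcomere and mitochondrial counts, and irradiated 2 and 3 have the fewest genes.

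Markers of the labelled cell type were present. All 12 myoblast and myotube markers passed the filter on low counts, and their summed level was 4498, 6932 and 81406 CPM in the normal and 49267, 8023 and 8248 CPM in the irradiated libraries. Markers of other cells were sparse, except those of fibroblasts and of smooth muscle and pericytes. The fibroblast sum, given below, exceeded the myoblast and myotube sum in normal 1 and 2 and in irradiated 2 and 3. Whether C2C12 cells made the fibroblast markers was not tested. The 10 macrophage and leukocyte markers summed to 456, 107 and 173 CPM in normal and 27.3, 18.7 and 1.29 CPM in irradiated constructs, 2 of the 10 passed the filter, and Ptprc, the pan-leukocyte marker CD45, was at 0 in all 6. The Schwann cell and neuron markers summed to 132, 292 and 111 against 31.3, 25.1 and 7.86 CPM, where values run over replicates 1, 2 and 3 with the normal ones first, here and below. This sum includes Gap43, described below. Endothelial markers summed to 6.16, 5.45 and 132 against 103, 29.5 and 5.75 CPM, erythroid markers to 7.19, 20.9 and 81.0 against 112, 5.55 and 1.06 CPM and adipocyte markers to 140.3, 137 and 319 against 134, 82.1 and 127 CPM. The leukocyte and the neural sums were below every normal library in all 3 irradiated ones, and so, by a narrow margin, was the adipocyte sum, while the endothelial and the erythroid sums overlapped. Fibroblast markers summed to 17853, 10533 and 11292 CPM in normal and 7719, 12040.0 and 12552 CPM in irradiated constructs, smooth muscle and pericyte markers to 977, 1394 and 2239 against 1898, 1069.6 and 1096 CPM, and chondrocyte and osteoblast markers to 276, 269 and 182 against 173, 269 and 290.2 CPM, with overlapping ranges in each. The part of such cells in the results below was not tested.

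The main comparison asked which transcripts differ after irradiation. Fbln7, a secreted fibulin of the extracellular matrix, rose. Col12a1, a collagen that decorates collagen fibrils, Inhba, the subunit of the TGF-beta family ligand activin A, and Wfdc17, a small secreted whey-acidic-protein gene, fell, as did Nt5e, Rrp1b and Gap43, which had no count in any irradiated library. These were the 7 genes called among 11980 tested, 0.0584% of them, in edgeR (quasi-likelihood test, Benjamini-Hochberg adjusted p under 0.05). The 1 higher gene is 0.00835% and the 6 lower genes are 0.0501% of those tested. The 3 irradiated values lay above all 3 normal values in 472 genes (3.94%) and below them in 1413 genes (11.8%). Without adjustment, p was under 0.05 for 1232 genes (10.3%), of which 190 (1.59% of all tested) lay higher and 1042 (8.7%) lower. The median log2 fold change over all tested genes was -0.21, and -2.19 over the 1841 genes with a mean under 5 CPM, where the irradiated libraries often had no count. A fit of the 6 compared libraries alone called 0 genes, with 712 at an unadjusted p under 0.05, while limma voom called 25 (0.209%) and DESeq2 445 (3.71%). For the 7 genes the adjusted p ran from 0.140 to 0.337 in edgeR with the 6 libraries alone, and limma voom called 5 of them, not Fbln7 (limma voom adjusted p = 0.147) and Wfdc17 (0.168).

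**Figure D2:**
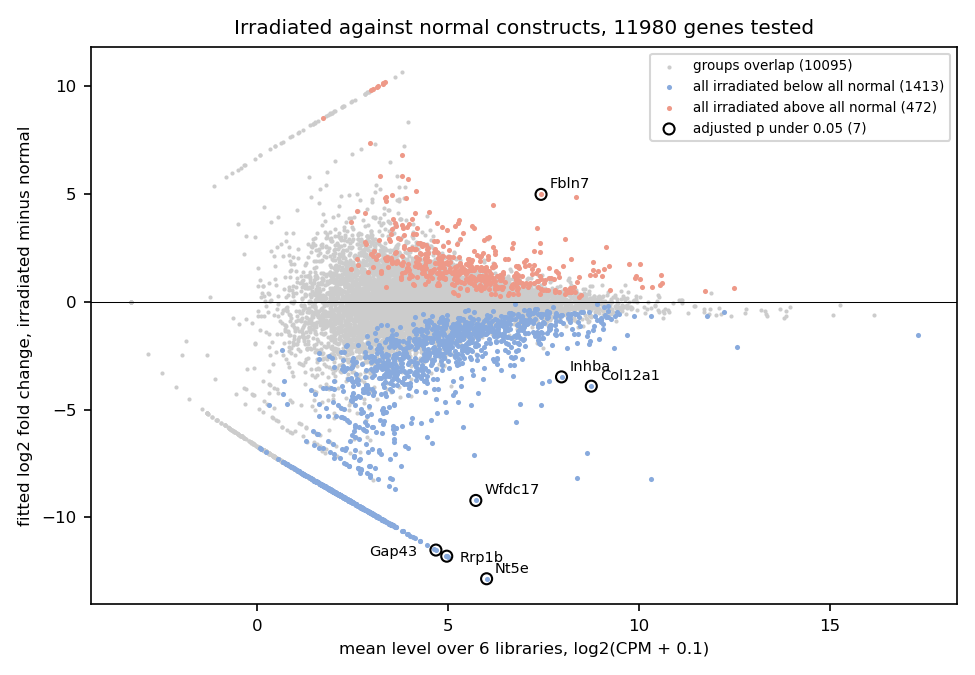
Each point is 1 of 11980 tested genes, by its mean level over the 6 libraries (log2 of CPM plus 0.1) and its fitted log2 fold change, irradiated minus normal; colours mark genes whose groups do not overlap and circles the 7 genes called. The straight edges at the upper and lower left are genes with no count in a whole group, whose fitted values depend on a prior count and are not measured sizes.

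Fbln7 was at 4.31, 8.86 and 18.9 CPM in normal 1, 2 and 3 and at 193, 414 and 396 CPM in irradiated 1, 2 and 3. Every irradiated value was many times the highest normal value, which came from normal 3, and irradiated 1 was the lowest of its group. The log2 fold change was 4.97 ± 0.60 (SE; edgeR adjusted p = 0.00512). Col12a1 was at 1039, 527 and 852 CPM in the normal and 89.6, 35.7 and 34.8 CPM in the irradiated libraries, in which irradiated 1 kept the most (log2 -3.92 ± 0.49, edgeR adjusted p = 0.00512). Inhba, at 688, 240.4 and 449 CPM in normal libraries, was at 42.6, 37.6 and 42.6 CPM in the irradiated ones (log2 -3.49 ± 0.43, edgeR adjusted p = 0.00512). The normal constructs differed in Inhba by a wide margin, with normal 2 lowest, whereas the irradiated values nearly coincided. Wfdc17 had 133, 21.1 and 161 CPM in normal and 0, 0.188 and 0.235 CPM in irradiated libraries, 1332 counts against 4, and was 615-fold lower by scaled counts, with a 95% interval of 239 to 2259 for counting error (edgeR adjusted p = 0.0354). Inhba and Wfdc17 were not called when normal 3 and irradiated 1 were both left out (edgeR adjusted p = 0.0676 and 0.136), nor was Wfdc17 without normal 1, normal 3 or irradiated 2 (0.120, 0.165 and 0.0530).

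Nt5e encodes CD73, the ectoenzyme that turns AMP into adenosine. It was at 171, 80.0 and 134 CPM in normal 1, 2 and 3 and at 0 in irradiated 1, 2 and 3, a difference of at least 1029-fold lower when the floor is set at 3 counts over the whole group (edgeR adjusted p = 2.94e-04). Rrp1b, a nucleolar protein of ribosome biogenesis, was at 79.9, 47.3 and 59.1 CPM in normal libraries and at least 500.2-fold lower in irradiated ones (edgeR adjusted p = 0.00512). Gap43, the growth-associated protein of nerve terminals that myogenic cells can also make, was at 49.7, 76.1 and 27.1 CPM and at least 416-fold lower (edgeR adjusted p = 0.00892). Each of the 3 genes was far above 0 in every normal library. Among genes with a mean of at least 20 CPM over the 6 libraries, Ankzf1, Ccl3, Celf4 and Rnase2a, singled out after their values were seen, also had no irradiated count. Ankzf1, a ribosome quality control factor, was at 39.4, 35.9 and 55.0 CPM in normal libraries (edgeR adjusted p = 0.0822), and Ccl3, a chemokine, at 112, 26.4 and 52.5 CPM (edgeR adjusted p = 0.153). Celf4 was at 44.2, 38.2 and 66.5 CPM and Rnase2a at 129.8, 15.5 and 36.9 CPM. No gene of that abundance had counts in irradiated and none in normal libraries. Bounds cover counting error only, and the part that the missing genes of irradiated 2 and 3 play in these zeros was not tested.

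**Figure D3:**
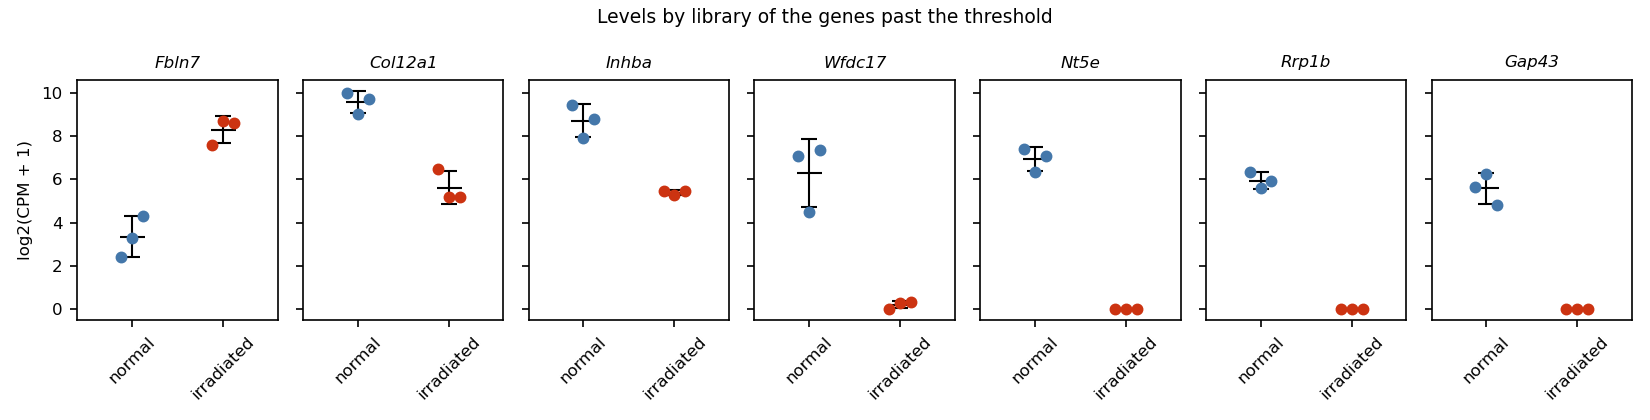
Levels of the 7 called genes as log2 of CPM plus 1, with 1 point per library (blue normal 1, 2 and 3 from left to right, red irradiated 1, 2 and 3) and black bars for the mean and SD of the log2 values (n = 3 each). The groups do not overlap for any of the 7, and Nt5e, Rrp1b and Gap43 sit at 0 in each irradiated library.

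Abundant genes gave a less one-sided picture. Among the 3102 genes with a mean of at least 50 CPM over the 6 libraries, 212 (6.83%) had all irradiated values above the normal ones and 328 (10.6%) had them below, with a median log2 fold change of -0.06. When those genes alone were fitted, edgeR called 22 (0.709%), 9 higher (0.29%) and 13 lower (0.419%). They hold 5 of the 7 above, while Gap43 and Rrp1b fell short of the minimum. The genes described next passed in the abundant genes and not in the full table, and both adjusted p-values are given. Their log2 fold changes and SE are those of the full table. Over all genes, none was called with the 6 libraries alone. With 1 library left out, the highest edgeR adjusted p of each, over all genes, lay between 0.221 (Axl) and 0.658 (Dclk1).

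Besides Fbln7, 8 abundant genes passed as higher in irradiated constructs. Selenop, the plasma selenium carrier, was at 16.6, 35.7 and 30.4 CPM in normal 1, 2 and 3 and 138, 189.9 and 212 CPM in irradiated 1, 2 and 3 (log2 2.71 ± 0.50, edgeR adjusted p = 0.0351 in abundant genes and 0.0892 in all). Col6a1, a chain of the microfibrillar collagen VI, was at 134, 149 and 75.8 against 317, 546 and 554 CPM (log2 1.98 ± 0.38, edgeR adjusted p = 0.0318 and 0.0932). In both genes irradiated 1 was the lowest irradiated library and still well above every normal one. Complement component C3 was at 481, 519 and 408 against 1358, 1923 and 1520.4 CPM (log2 1.77 ± 0.35, edgeR adjusted p = 0.0438 and 0.109). Aebp1, a collagen-binding secreted protein of the matrix, was at 237, 306 and 304 against 751, 1022 and 625 CPM (log2 1.501 ± 0.32, edgeR adjusted p = 0.0458 and 0.134). Irradiated 2 was highest for both C3 and Aebp1, and the lowest irradiated library exceeded the highest normal one more than 2-fold in each. Ly6e, an interferon-inducible membrane protein, was at 208, 218 and 164 against 439, 744 and 899 CPM (edgeR adjusted p = 0.0318 and 0.0932), and Exoc4, a subunit of the exocyst that tethers secretory vesicles, at 42.7, 65.7 and 55.3 against 149.9, 223 and 219 CPM (edgeR adjusted p = 0.0322 and 0.109). Gprin3, a regulator of neurite outgrowth, was at 49.9, 64.5 and 36.1 against 188, 339.7 and 233 CPM (edgeR adjusted p = 0.0316 and 0.0719), and Dclk1, a microtubule-associated kinase, at 236, 329 and 222 against 745, 680.4 and 696 CPM (edgeR adjusted p = 0.0458 and 0.146). In none of these 4 did the groups overlap.

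Besides Nt5e, Inhba, Col12a1 and Wfdc17, 9 abundant genes passed as lower. Grem1, a secreted antagonist of bone morphogenetic proteins, was at 491, 319 and 541 CPM in normal 1, 2 and 3 and 115, 64.2 and 126 CPM in irradiated 1, 2 and 3 (log2 -2.14 ± 0.36, edgeR adjusted p = 0.0316 in abundant genes and 0.0632 in all). Axl, a receptor tyrosine kinase that binds the ligand Gas6, was at 205, 276 and 308 against 64.7, 76.3 and 67.2 CPM (log2 -1.92 ± 0.33, edgeR adjusted p = 0.0292 and 0.0643). For both, the lowest normal library exceeded the highest irradiated one more than 2-fold. Trib1, a pseudokinase that directs transcription factors to degradation, was at 211, 116 and 146 against 33.6, 24.5 and 37.0 CPM (log2 -2.31 ± 0.40, edgeR adjusted p = 0.0316 and 0.0643). Ier3, an immediate early gene induced by NF-kB and stress, was at 848, 568 and 565 against 161, 238 and 152 CPM (log2 -1.84 ± 0.34, edgeR adjusted p = 0.0318 and 0.0822). Jun, a subunit of the transcription factor AP-1, was at 335, 328 and 327 against 97.7, 104 and 152 CPM (edgeR adjusted p = 0.0467 and 0.135). The normal values of Jun nearly coincided, and irradiated 3 was the highest of its group. Hspa4l, a heat shock protein that recharges HSP70 with nucleotide, was at 221, 138 and 123 against 40.7, 34.8 and 38.2 CPM (edgeR adjusted p = 0.0318 and 0.0822), and Dnajc21, a chaperone of ribosome assembly, at 291, 181 and 293 against 75.0, 84.2 and 60.8 CPM (edgeR adjusted p = 0.0318 and 0.0932). Ptma, prothymosin alpha, a nuclear protein of growing cells, was at 506, 617 and 456 against 181, 74.7 and 163 CPM (edgeR adjusted p = 0.0436 and 0.0937). Irradiated 2 was far the lowest library for Ptma. Crip1, a small zinc-binding LIM protein that lies outside the naming rule and was singled out after its values were seen, completed the 13 lower genes, at 273, 272 and 186 against 86.5, 67.4 and 86.7 CPM (edgeR adjusted p = 0.0458 and 0.127).

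Further genes with counts in all 6 libraries and groups apart did not pass in either of these edgeR fits. On the higher side were Itm2b, a membrane protein that binds the amyloid precursor, at 348, 577 and 267 against 911, 1468 and 1569.8 CPM, the lipid carrier Apoe at 245, 428 and 176 against 827, 903 and 954 CPM, and Cyp2f2, a cytochrome P450, at 21.8, 135 and 31.5 against 351, 459 and 607 CPM. On the lower side were Cck, the peptide hormone cholecystokinin, at 658, 149 and 304 against 41.1, 23.8 and 21.0 CPM, the complement inhibitor Serping1 at 1439.9, 739 and 991 against 177, 346 and 193 CPM, and Sod3, the extracellular superoxide dismutase, at 778, 369 and 833 against 165, 169 and 174 CPM. Their adjusted p-values over all genes, from edgeR, were 0.130, 0.141, 0.146, 0.109, 0.109 and 0.114 in that order. Other tools called some of them. For Apoe, Cyp2f2 and Cck the DESeq2 adjusted p was 3.05e-05, 1.34e-04 and 3.05e-05, and the limma voom adjusted p 0.0218, 0.102 and 0.146. Sod3 was nearly equal in the irradiated libraries and more than 2-fold apart among the normal ones.

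**Figure D4:**
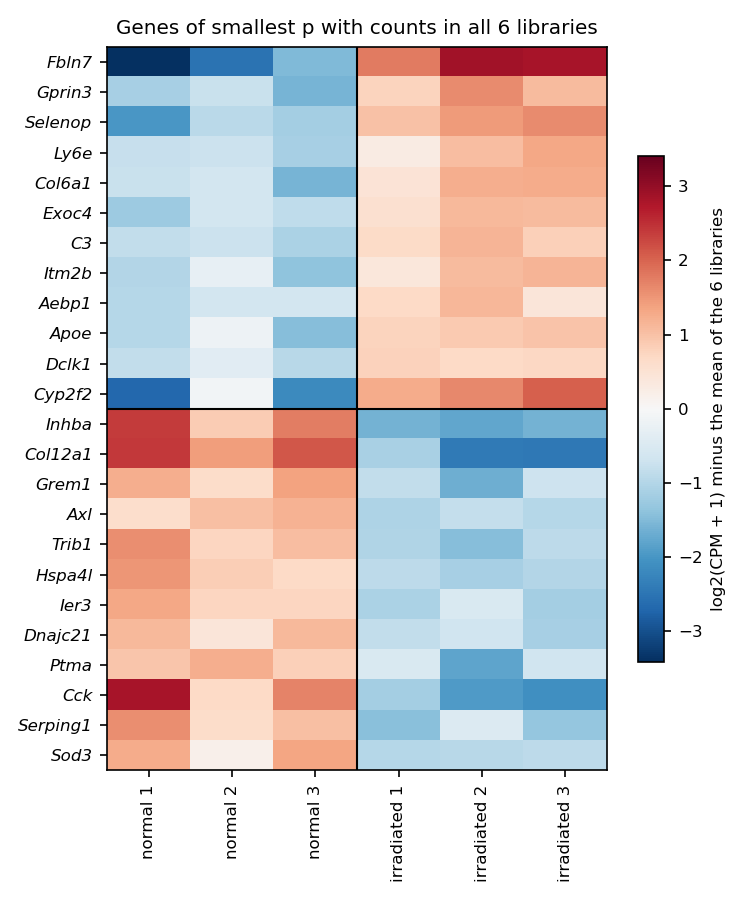
Log2 of CPM plus 1 minus the mean of the 6 libraries, for the 12 higher and 12 lower genes of smallest p that had a mean of at least 20 CPM, counts in all 6 libraries and groups that do not overlap. All rows were chosen for this separation; normal 2 is the normal library nearest to the irradiated ones in 19 of the 24, and irradiated 1 the irradiated library nearest to the normal ones in 14.

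Gene lists are described by the number of members that passed the filter on low counts, the sign of their log2 fold changes, how many lay apart between the groups and their median, to be read against the values for all genes (58.2% lower, 3.94% apart and higher, 11.8% apart and lower, median -0.21). No list was tested as a whole. Scaling by library totals in place of TMM moved the median of all genes from -0.21 to 0.14, so a list median between these values has no settled sign. A median outside them need not be settled either. That of cytokines and chemokines, at -0.47, ran from -1.54 to 0.31 over the settings tried, and 13 of the 41 lists kept their sign throughout. Outside the 7 called genes, edgeR called none of the 1166 tested members over all genes, with 170 at an unadjusted p under 0.05, whereas DESeq2 called 84 (31 higher, 53 lower) and limma voom 11 (5 higher, 6 lower). Over all 11980 tested genes these shares were 10.3% at the unadjusted edgeR p, 3.71% for DESeq2 and 0.209% for limma voom. The lists were chosen with earlier results of these data known, so a larger share among members is no result about them. Differences named below are therefore given as descriptions of these libraries.

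Genes of the p53 response were higher more often than lower, and edgeR called none, with 2 at an unadjusted p under 0.05 (DESeq2 called 1, lower, and limma voom 0). Of 37 members tested, 25 had positive log2 fold changes, 5 lay apart above and 1 below, and the median was 0.28. Cdkn1a, which encodes p21, was at 969, 1365 and 655 CPM in normal 1, 2 and 3 and at 1390.0, 1701 and 1754 CPM in irradiated 1, 2 and 3 (log2 0.70 ± 0.33, edgeR adjusted p = 0.486). The groups touched without overlap, since normal 2 lay just below irradiated 1. Sulf2, an extracellular sulfatase that trims heparan sulfate, was at 22.6, 18.2 and 21.1 against 66.0, 108 and 61.2 CPM (edgeR adjusted p = 0.499), and Ephx1, an epoxide hydrolase, at 56.7, 57.5 and 110.3 against 231, 148 and 129 CPM (edgeR adjusted p = 0.483). Mdm2, the ubiquitin ligase that degrades p53, overlapped fully, at 39.8, 88.9 and 66.2 against 71.3, 77.2 and 51.7 CPM. Cdkn2a, the p16 locus often used as a senescence marker, had no count in any library. Among 22 tested inhibitors and cyclins of the cell cycle kinases, 17 were negative (median -0.56). Cdk4, the kinase of cyclin D, was at 55.7, 99.5 and 62.7 against 45.8, 12.8 and 6.34 CPM, and Cdkn1b, the p27 inhibitor, at 91.0, 113 and 56.1 against 32.6, 65.2 and 58.3 CPM. Cdk4 in irradiated 1 lay only slightly below normal 1, and irradiated 2 and 3 held much less.

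Genes of mitosis, which build the spindle, the kinetochore and the midbody, were the lowest of the 41 lists. Of 47 entries 45 passed the filter, 41 were negative, 17 lay apart below and 0 above. No irradiated count was found for 12 of them, against 944 of all 11980 tested genes. The filter used all 9 libraries, so these 12 passed through normal or cocultured ones, a selection that favours lower values. The summed level of the list was 879, 1843 and 603 CPM in normal 1, 2 and 3 and 315, 307 and 183 CPM in irradiated 1, 2 and 3. Normal 2 held the most, and even normal 3, the lowest of its group, held more than any irradiated library. Over all genes edgeR called none of the 45 tested members, with 15 at an unadjusted p under 0.05 (10.3% of all tested genes). DESeq2 called 10, all lower (3.71% of all tested genes in either direction), and limma voom 0. The list median of -3.71 compares with -2.19 for all genes under 5 CPM, -0.32 for those from 5 to 20 CPM and -0.08 for those from 20 to 50 CPM. It stayed below 0 in every setting tried and ran from -7.56 (without both normal 3 and irradiated 1) to -1.55 (the 2 members averaging 50 CPM or more), with -7.52 without irradiated 1, -2.42 without normal 2 and -6.12 without both irradiated 2 and 3. It includes fitted values of genes at 0, and only 2 members reached a mean of 50 CPM. Top2a, the topoisomerase that untangles replicated chromosomes, was at 81.7, 219 and 111 CPM in normal and 15.8, 29.4 and 9.39 CPM in irradiated libraries (log2 -2.91 ± 0.61, edgeR adjusted p = 0.124). Racgap1, a component of the central spindle, was at 39.0, 64.3 and 50.9 against 1.70, 0.0940 and 15.3 CPM, Cenpf, a kinetochore protein, at 40.0, 142 and 45.4 against 15.1, 0 and 0.117 CPM, and Mki67, the Ki-67 proliferation antigen, at 21.2, 50.7 and 17.0 against 5.96, 0 and 0 CPM (edgeR adjusted p = 0.483 for each of the 3). In Cenpf and Mki67 nearly all irradiated counts came from irradiated 1, and in Racgap1 most came from irradiated 3.

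Many genes of this list are known to share promoter elements, the CHR (TTTGAA) and the CCAAT box, through which the DREAM and NF-Y complexes act in other cells. The 250 bases before the start of the 4 mitotic genes with values above are shown because their levels lay lower together here. They run 5′ to 3′ in the direction of the gene, from RefSeq on GRCm38.p6, which is not the build of the count files, and capitals mark every TTTGAA and CCAAT on either strand (TTCAAA and ATTGG on the other).
Top2a, chr11:99024190-99024439, minus strand: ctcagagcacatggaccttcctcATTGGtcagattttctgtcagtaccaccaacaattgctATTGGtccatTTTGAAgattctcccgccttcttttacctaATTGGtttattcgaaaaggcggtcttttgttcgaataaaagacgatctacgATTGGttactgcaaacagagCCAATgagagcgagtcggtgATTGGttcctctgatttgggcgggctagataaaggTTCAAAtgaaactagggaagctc
Racgap1, chr15:99651657-99651906, minus strand: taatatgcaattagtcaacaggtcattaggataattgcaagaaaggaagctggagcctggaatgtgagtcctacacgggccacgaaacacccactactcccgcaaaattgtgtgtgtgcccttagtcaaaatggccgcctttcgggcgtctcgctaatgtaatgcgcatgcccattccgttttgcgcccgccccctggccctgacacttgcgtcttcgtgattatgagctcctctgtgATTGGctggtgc
Cenpf, chr1:189688087-189688336, minus strand: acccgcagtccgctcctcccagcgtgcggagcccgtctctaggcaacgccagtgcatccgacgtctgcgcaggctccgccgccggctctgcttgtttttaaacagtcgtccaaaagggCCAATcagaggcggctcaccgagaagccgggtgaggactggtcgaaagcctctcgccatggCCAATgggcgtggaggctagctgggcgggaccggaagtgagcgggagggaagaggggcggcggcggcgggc
Mki67, chr7:135716380-135716629, minus strand: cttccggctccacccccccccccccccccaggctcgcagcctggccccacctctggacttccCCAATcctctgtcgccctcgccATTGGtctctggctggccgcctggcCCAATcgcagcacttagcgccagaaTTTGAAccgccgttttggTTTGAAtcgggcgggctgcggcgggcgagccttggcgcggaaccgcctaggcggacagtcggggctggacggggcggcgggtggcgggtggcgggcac
Top2a held 2 matches of TTTGAA and 6 of CCAAT, Mki67 held 2 and 3, and Cenpf and Racgap1 held 2 and 1 of CCAAT and none of TTTGAA in this window. A promoter was matched for 37 of the tested mitotic genes and for 9294 of all tested genes. TTTGAA was found in 14 of the 37 (37.8%), against 12.4% of the tested genes and 18.3% of all 27025 promoters of the table. CCAAT was found in 28 (75.7%), against 40.3% and 37.5%. The E2F core GCGGGAA was in 0 of the 37 and in 7.9% of the tested genes, and the Sp1 core GGGCGG in 75.7% and 63.5%. The motifs were searched on both strands, and matches of different motifs may share end letters. A match describes the letters only.

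Replication genes were mixed around a negative median. Of 41 tested, 30 were negative, 6 lay apart below and 3 above, and the median was -1.03. Lig1, the ligase that joins Okazaki fragments, was at 99.8, 212 and 78.5 CPM in normal and 38.8, 19.4 and 67.2 CPM in irradiated libraries, and Dnmt1, the maintenance DNA methyltransferase, at 42.9, 69.1 and 32.3 against 15.1, 18.2 and 0 CPM. Mcm4, a subunit of the replicative helicase, went the other way at 0, 9.54 and 6.29 against 33.0, 80.9 and 103 CPM. Each of these 3 had groups apart, and none passed the test (edgeR adjusted p = 0.466, 0.801 and 0.457). The 29 tested genes of damage signalling and repair had a median near 0, with 14 positive. Xrcc1, the scaffold of single-strand break repair, was at 33.7, 11.4 and 14.0 against 28.5, 39.6 and 38.1 CPM. Of 25 lamina and chromatin-protein genes 21 were negative (median -0.54). Lmnb1, the lamin lost in many senescent cells, was at 12.9, 58.2 and 10.7 against 13.0, 0 and 0 CPM, with overlapping groups as irradiated 1 lay level with normal 1. Hmgb2, a chromatin protein also used as a senescence marker, was at 8.22, 85.2 and 36.4 against 3.19, 17.6 and 16.3 CPM, again overlapping. Hmga2, an architectural chromatin protein of proliferating and fetal cells, was at 249, 148 and 153 against 54.1, 19.1 and 38.5 CPM (log2 -2.30 ± 0.47, edgeR adjusted p = 0.115), and Sun1, which links the lamina to the cytoskeleton, at 40.9, 85.0 and 27.6 against 14.3, 0 and 15.96 CPM. Hmga2 was lower in every irradiated library by more than 2-fold.

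Secreted signals went both ways, gene by gene. Of 25 tested cytokines and chemokines 8 lay apart below and 4 above, with a median of -0.47 that turned to 0.31 with library totals. The summed level of the list overlapped, at 8183.5, 5982 and 5932 against 6270, 7101.5 and 7956 CPM. Il1a, an interleukin released by damaged cells, was at 164, 56.4 and 82.9 CPM in normal and 2.56, 0 and 0 CPM in irradiated libraries (edgeR adjusted p = 0.101). Il6, a central cytokine of the secretory phenotype, was at 468, 149 and 364 against 0, 1.599 and 70.6 CPM, with only irradiated 3 far above 0. Ccl2, a monocyte chemokine, was at 32.9, 31.6 and 35.0 against 0.639, 8.56 and 170.4 CPM. The normal values of Ccl2 nearly coincided, and irradiated 3 was far above and the other 2 far below them. Cxcl12, the ligand of CXCR4, was at 41.3, 315 and 134 against 817, 1254 and 784 CPM (log2 2.54 ± 0.57, edgeR adjusted p = 0.146, DESeq2 adjusted p = 7.07e-05, limma voom adjusted p = 0.033). The normal libraries differed in Cxcl12 by several-fold, and all lay below the irradiated ones.

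Growth factors and IGF binding proteins were also divided, with 5 of 30 apart above and 7 below. Hgf, the activator of satellite cells, was at 266, 387 and 299.6 CPM in normal and 571, 808 and 805 CPM in irradiated libraries (log2 1.20 ± 0.33, edgeR adjusted p = 0.276). Gas6, the ligand of Axl, was at 0, 61.6 and 3.28 against 309, 728 and 856 CPM (edgeR adjusted p = 0.273), so that ligand and receptor lay in opposite directions. Igfbp2, an IGF binding protein, was at 375, 334 and 293 against 23.4, 13.2 and 0 CPM (log2 -4.79 ± 1.08, edgeR adjusted p = 0.146). Normal 2 was by far the highest normal library for Gas6, while the normal values of Igfbp2 were close to each other.

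NF-kB and prostaglandin genes lay mostly lower. Their 28 tested members had a median of -0.45, 9 lay apart below and 2 above, and their summed level was 18104, 10406 and 11714 CPM in normal and 3961, 4896 and 4299 CPM in irradiated libraries. Much of that sum was Saa3, a serum amyloid of the acute phase that lies outside the naming rule and was singled out after its values were seen, at 13119, 7475 and 8657 against 2093, 2572 and 2245 CPM. Ptgs2, the inducible cyclooxygenase, was at 1274, 272 and 440.3 against 7.67, 0 and 0 CPM (edgeR adjusted p = 0.0932), and Lcn2, an iron-binding acute phase protein, at 326, 73.4 and 122 against 21.7, 18.996 and 26.8 CPM (log2 -2.95 ± 0.68, edgeR adjusted p = 0.153). Normal 1 was the highest library for both. AP-1 and other immediate early genes, which answer serum, stretch and stress within minutes, showed the same direction: of 28 tested 23 were negative and 8 lay apart below, against 0 above (median -1.02). Their summed level was 5299, 4289 and 3402 CPM in normal and 1946, 2018 and 1946 CPM in irradiated libraries. The irradiated sums nearly coincided and the normal ones did not. Nr4a2, an inducible orphan nuclear receptor, was at 1462, 363 and 532 against 18.7, 0 and 0.235 CPM (edgeR adjusted p = 0.142). The list holds Jun and Ier3, given above.

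Interferon and antigen presentation genes and complement lay mostly higher. Of 36 interferon and MHC class I entries 21 passed the filter, 18 were positive, 4 lay apart above and 2 below, and the median was 0.84, and 0.00 without both irradiated 2 and 3. B2m, the light chain of MHC class I, was at 736, 624 and 399 CPM in normal and 1061, 1713 and 1277 CPM in irradiated libraries (log2 1.20 ± 0.34, edgeR adjusted p = 0.291), and Tapbp, tapasin, which helps load peptide onto it, at 154, 126 and 105 against 301, 237 and 273 CPM (log2 1.08 ± 0.33, edgeR adjusted p = 0.377). For both, every irradiated library lay above every normal one. Complement components and regulators numbered 15 tested, with 11 positive, 5 apart above, 2 below and a median of 1.09. C3, given above, was among those higher. Serping1, the inhibitor of the classical pathway, lay in the other direction, as given above.

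**Figure D5:**
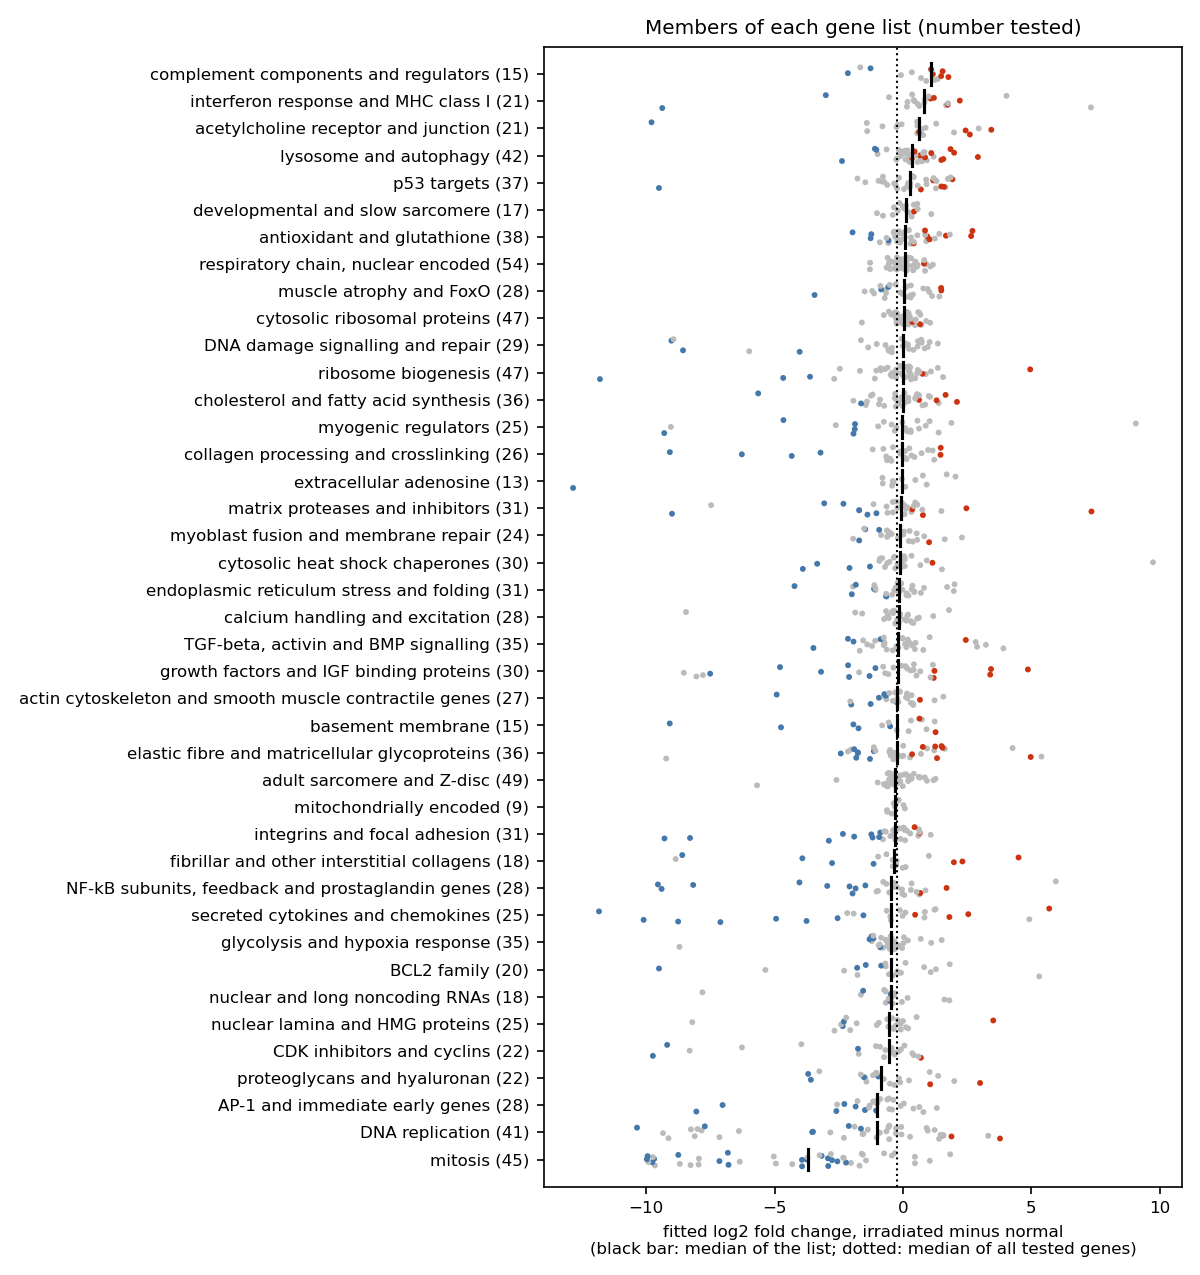
Fitted log2 fold changes of the tested members of 41 gene lists, ordered by their medians (black bars); red and blue points are members whose irradiated values all lie above or below the normal ones, and the dotted line is the median of all tested genes. Mitosis (median -3.71) and replication (-1.03) are at the bottom and complement (1.09) and interferon genes (0.84) at the top, and points far to the left include genes without irradiated counts.

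The matrix was described by its classes, and members of a class lay on both sides. Of 18 interstitial collagen genes tested, 3 lay apart above and 4 below (median -0.34, and 0.08 with library totals). Their summed level overlapped, at 10404, 7181 and 7039 against 4926, 8098 and 7501 CPM. Col6a2, the partner chain of Col6a1, was at 71.3, 49.1 and 48.7 CPM in normal and 265, 404 and 172 CPM in irradiated libraries (log2 2.31 ± 0.54, edgeR adjusted p = 0.155). Both collagen VI chains thus lay higher and the fibril-associated Col12a1 lower. Col1a1, the main chain of fibrillar collagen I, was at 61.0, 182 and 581 against 166, 560.3 and 89.1 CPM. Its values spread several-fold within both groups and overlapped, and its sign depended on the scaling (log2 -0.01, and 0.80 with library totals). Among 15 basement membrane genes 2 lay apart above and 5 below. The sum of this list lay apart above, at 6725, 5540 and 5573 against 7547, 8504 and 8383 CPM. Col4a1, a chain of the collagen IV network, was at 92.4, 99.1 and 64.3 against 155, 198 and 264 CPM (edgeR adjusted p = 0.291), while the laminin chains Lama4, at 185, 182 and 212 against 41.3, 45.7 and 87.3 CPM, and Lamc1, at 219, 166 and 152 against 12.8, 44.4 and 83.2 CPM, lay lower (edgeR adjusted p = 0.146 and 0.318). Collagen IV and laminins form the 2 networks of the same sheet.

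Elastic fibre and matricellular genes, 36 tested, had 7 members apart above and 7 below. Together they summed to 4309, 4703 and 4321 against 4713, 7152 and 5586 CPM, apart above by a narrow margin. Beside Fbln7 and Aebp1, Ccn2, a growth factor-binding protein induced by TGF-beta and YAP, was at 233, 195 and 105 CPM in normal and 15.5, 62.3 and 64.6 CPM in irradiated libraries (log2 -1.90 ± 0.52, edgeR adjusted p = 0.267). Of 22 proteoglycan and hyaluronan genes 16 were negative (median -0.85), and their sums overlapped, at 14308, 9652 and 9466 against 7662, 10482 and 10162 CPM. Sdc4, a cell-surface heparan sulfate proteoglycan of focal adhesions, was at 587, 550.2 and 376 against 279, 123 and 125 CPM (edgeR adjusted p = 0.196). Prg4, the lubricant lubricin, was at 127, 118 and 85.6 against 18.95, 8.75 and 0.117 CPM, and the small proteoglycan Bgn, biglycan, was on the other side at 592, 864 and 560.4 against 1237, 1689 and 1277 CPM (edgeR adjusted p = 0.273 and 0.391). Irradiated 1 was the highest irradiated library for Sdc4 and Prg4, nearest to the normal ones.

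Enzymes that build or cut the matrix were evenly divided by gene, with medians of -0.04 over 26 processing genes and -0.09 over 31 proteases and inhibitors. Summed levels were higher in every irradiated library, at 3020, 3009 and 2193.5 against 3069, 3476.5 and 3055.5 CPM for processing genes. For proteases and inhibitors the sums were 10205, 7814 and 8274 against 10716, 10506 and 10675 CPM. Pcolce, an enhancer of procollagen cleavage, was at 233, 305 and 165 CPM in normal and 771, 739.5 and 427 CPM in irradiated libraries (edgeR adjusted p = 0.165). Its relative Pcolce2 was at 38.4, 27.5 and 61.3 against 1.70, 0 and 0 CPM, and Loxl2, a collagen crosslinking oxidase, at 92.0, 54.1 and 53.4 against 3.19, 0 and 6.69 CPM (edgeR adjusted p = 0.400 and 0.401). So the members of smallest p in this class did not share a direction. Adamts1, a protease of proteoglycans, was at 12.1, 42.7 and 38.3 against 177, 163 and 176 CPM, with irradiated values that nearly coincided (edgeR adjusted p = 0.347). Mmp3, stromelysin, was at 353, 185 and 211 against 64.3, 157 and 65.1 CPM (edgeR adjusted p = 0.398). It lay below the normal libraries in all 3 irradiated ones.

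Some cell adhesion genes, through which cells hold this matrix, lay lower. Of 31 integrin and focal adhesion genes tested 9 lay apart below and 2 above (median -0.31, and 0.13 with library totals). Of the 14 with a mean of at least 50 CPM, 7 were positive, 2 lay apart above and 2 below (median -0.04). The summed level of the list was 4070, 3605 and 3334 against 2610, 3183 and 2985 CPM. Itgb1, the common beta chain of the collagen and laminin receptors, was at 741, 599 and 687 CPM in normal and 321, 368 and 376 CPM in irradiated libraries (log2 -0.93 ± 0.28, edgeR adjusted p = 0.374). Replicates of Itgb1 were close in both groups. Tln1, talin, which ties integrins to actin, was at 325, 305 and 314 against 164, 302 and 44.6 CPM, with irradiated 2 next to the normal values. Of 27 actin cytoskeleton and smooth muscle genes 7 lay apart below and 1 above. Tagln2, an actin-binding transgelin, was at 762, 831 and 658 against 368, 218 and 355 CPM (log2 -1.26 ± 0.31, edgeR adjusted p = 0.182), Tpm4, a non-muscle tropomyosin, at 484, 466 and 375 against 138, 245 and 309 CPM, and Flna, the crosslinker filamin A, at 235, 254 and 244 against 165, 183 and 96.2 CPM. In the 35 tested genes of TGF-beta, activin and BMP signalling, Inhba and Grem1 were the members of smallest p. Fst, follistatin, the secreted antagonist of activin and myostatin, overlapped between the groups at 5.13, 22.04 and 19.7 against 12.6, 148 and 185 CPM.

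Adult sarcomere and calcium handling genes overlapped between the groups, while 5 myogenic regulators, all averaging under 50 CPM, lay apart below. Of 25 myogenic regulators 12 were positive, 5 lay apart below and 0 above (median -0.02). Of the 10 with a mean of at least 50 CPM, 8 were positive and 0 lay apart in either direction (median 0.24). Myog, myogenin, the switch to terminal differentiation, was at 190.0, 378 and 199 CPM in normal and 525, 129 and 295 CPM in irradiated libraries. Irradiated 1 was the highest and irradiated 2 the lowest of all 6. Prdm1, a transcriptional repressor, was at 146, 35.0 and 40.2 against 8.94, 0 and 0 CPM, Six4, a homeobox activator of early myogenesis, at 118, 77.5 and 37.2 against 3.41, 33.4 and 26.3 CPM, and both had groups apart (edgeR adjusted p = 0.483 and 0.483). Of 24 fusion and membrane repair genes, Mymk, myomaker, which drives myoblast fusion, was at 161, 138 and 68.4 against 191, 355 and 199 CPM, and Cd9, a tetraspanin of fusing cells, at 368, 162 and 206 against 54.7, 90.6 and 120.0 CPM. They lay apart in opposite directions, with normal 1 and irradiated 1 close for Mymk, and neither passed (edgeR adjusted p = 0.483 and 0.432). No member of the adult sarcomere list lay apart, of 49 tested, and none of 28 calcium handling genes. The adult list had a median of -0.31, which ran from -2.03 to 2.08 over the processing choices tried. Ckm, the creatine kinase of muscle, was at 364, 499 and 12005 against 7258, 702 and 553 CPM, and Myh3, embryonic myosin, at 146, 276 and 98.5 against 60.5, 246 and 352 CPM. The spread of Ckm within each group, set by normal 3 and irradiated 1, was far larger than the difference between groups.

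Genes of the receptor apparatus at the nerve contact leaned higher. All 21 entries on the acetylcholine receptor and junction were tested, 14 were positive, 4 lay apart above and 1 below, and the median was 0.62. Chrna1, the agonist-binding subunit, was at 200.04, 310.4 and 142 CPM in normal and 250.2, 416 and 458 CPM in irradiated libraries. Chrnb1, the beta subunit, was at 0.411, 7.73 and 9.85 against 39.4, 45.2 and 24.9 CPM, and Lrp4, the agrin receptor that clusters the channels, at 0.205, 14.1 and 0 against 15.1, 61.5 and 79.1 CPM. Chrnb1 and Lrp4 were near 0 in normal 1, none of the 3 passed (edgeR adjusted p = 0.513, 0.734 and 0.513), and only Chrna1 overlapped between the groups. Atrophy and FoxO genes, 28 tested, had a median of 0.05, with 14 positive. Cast, calpastatin, the inhibitor of calpain proteases, was at 364, 302 and 341 against 219, 222 and 236 CPM, with close replicates and groups apart (edgeR adjusted p = 0.514).

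Respiratory chain genes were centred near 0, and glycolysis and hypoxia genes lay mostly lower. Of 54 nuclear-encoded respiratory chain genes 31 were positive, 1 lay apart above and 0 below (median 0.06). Of 35 glycolysis and hypoxia genes 29 were negative and 5 lay apart below, with a median of -0.48 against -0.21 for all genes, and of 0.22 without both irradiated 2 and 3. Hif1a, the oxygen-regulated transcription factor, was at 148, 231 and 143 CPM in normal and 62.2, 80.7 and 81.7 CPM in irradiated libraries (log2 -1.22 ± 0.35, edgeR adjusted p = 0.303), and its target Vegfa, the vascular growth factor, at 242, 119 and 157 against 62.8, 88.8 and 57.8 CPM (log2 -1.30 ± 0.41, edgeR adjusted p = 0.389). All 3 irradiated values of both genes lay below the normal ones. Cytosolic ribosomal proteins had a median of 0.04 over 47 genes, and ribosome biogenesis genes one of -0.01, also over 47, among which Rrp1b was the gene called. Rrs1, a nucleolar assembly factor, was at 59.4, 75.9 and 38.0 against 7.03, 0 and 0 CPM (edgeR adjusted p = 0.483).

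Lysosomal genes leaned higher. Of 42 tested, 31 were positive, 10 lay apart above and 3 below, and the median was 0.34. Of these edgeR called none, with 6 at an unadjusted p under 0.05, DESeq2 3, all higher, and limma voom 0. Hexa, a lysosomal hydrolase that acts on gangliosides, was at 139, 135 and 114 CPM in normal and 254, 226 and 224 CPM in irradiated libraries, with groups apart (edgeR adjusted p = 0.483). Atp6v1a, a subunit of the proton pump that acidifies the lysosome, was at 107, 171 and 117 against 255, 236 and 358 CPM (edgeR adjusted p = 0.381, DESeq2 adjusted p = 0.0385). The replicates of Hexa were close in both groups.

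Stress and redox genes lay on both sides. Of 31 endoplasmic reticulum genes 6 lay apart below and 0 above. Pdia4, a disulfide isomerase, was at 420.0, 283 and 303 CPM in normal and 172, 38.7 and 42.2 CPM in irradiated libraries, Hsp90b1, the chaperone GRP94, at 1490.5, 964 and 938 against 707, 592 and 857 CPM, and Atf4, the transcription factor of the integrated stress response, at 442, 388 and 603 against 193, 159 and 304 CPM (edgeR adjusted p = 0.334, 0.488 and 0.419). Each of the 3 was lower in every irradiated library. Antioxidant genes, 38 tested, had 7 apart above and 4 below (median 0.07). Gstm1, a glutathione transferase, was at 42.1, 42.7 and 79.1 against 196, 164 and 162 CPM (log2 1.67 ± 0.38, edgeR adjusted p = 0.149), beside Selenop on the same side and Sod3 on the other. Of 30 cytosolic chaperone genes 4 lay apart below and 1 above. Hsph1, an HSP110 chaperone related to Hspa4l, was at 177, 88.6 and 149.7 against 56.0, 32.8 and 81.5 CPM (edgeR adjusted p = 0.483). Of 20 BCL2 family and caspase genes 14 were negative (median -0.48). Bcl2l11, the death-promoting BIM, was at 81.3, 38.2 and 64.0 against 11.3, 18.996 and 22.9 CPM (edgeR adjusted p = 0.483). Every normal value of Bcl2l11 was above every irradiated one.

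Gm26917, a predicted gene, had the most counts of any gene in 5 of the 6 libraries and was second to ND4, a mitochondrially encoded gene, in normal 3. It took 23.9%, 27.4% and 9.47% of the counts of normal 1, 2 and 3 and 12.01%, 4.76% and 5.28% of irradiated 1, 2 and 3. The raw shares of normal 3 and irradiated 1 overlapped between the groups, while the TMM-normalised levels lay apart (log2 -1.55 ± 0.73, edgeR adjusted p = 0.483). It was called without irradiated 1 (log2 -2.59, edgeR adjusted p = 0.0283), without both normal 3 and irradiated 1 (-2.77, 0.0176), without the filter on low counts (-1.55, 6.77e-13) and by limma voom (-2.52, 1.6e-06), and not by DESeq2 (-1.49, 0.21). Leaving it and the mitochondrially encoded genes out of the fit gave the same 7 calls.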

How the data were processed

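RNA of 9 constructs was read as single-end 75 bp QuantSeq 3' FWD libraries made from 100 ng of total RNA, per the labels' protocols, which name no molecular identifiers. The authors deposited whole-number counts per gene symbol (40879 symbols, 18619 with a count); FastQC, STAR, HTSeq and GRCm39/mm39 are named in the submitters' processing notes, with no version; annotation and strand setting are not given here. Overlapping and antisense genes may therefore share reads. Column headers carry a number 1 higher than the label's, and each file was tied to its sample by the series' file record. edgeR 4.0.16 (R 4.3.3) was fitted to all 9 libraries with group as its term, after filterByExpr at its defaults (11980 genes) and TMM scaling. CPM use TMM-scaled totals, and standard errors are the log2 fold change over the square root of F, which is approximate. The common biological coefficient of variation was 1.32. Intervals and floors (3 counts) cover counting error only. Within-group pairs differed beyond counting noise, so each library counted once. Alternatives used DESeq2 1.42.0, limma 3.58.1, other scalings and filters, and libraries left out.

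The members, the 41 gene lists and the 9 marker lists (1451 of 1454 entries matched a symbol) were chosen with earlier results of these data known. Genes were named by rule: all called genes, per direction the 12 of smallest p with a mean of at least 20 CPM, counts in all 6 libraries, groups apart and no predicted or pseudogene symbol, up to 3 members of smallest p per list with at least 20 CPM, and a panel of 12 genes (Cdkn1a, Cdkn2a, Mdm2, Mki67, Lmnb1, Hmgb2, Il6, Ccl2, Col1a1, Myog, Myh3, Ckm). Some genes that met the naming rule are not reported here.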

Additional observations from a re-analysis of the deposited data

How the results depend on the processing

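The 7 calls (1 higher, 6 lower) stayed the same 7 with relative log expression or upper quartile factors, and were among 9 with library totals. Counts of calls (in all, higher, lower) were 130, 26 and 104 without the filter, 22, 9 and 13 in genes averaging 50 CPM or more, 0, 0 and 0 with the 6 libraries alone, 445, 84 and 361 with DESeq2, 25, 7 and 18 with limma voom, and 21 in all at a threshold of 0.1. They were 20, 1 and 19 without both normal 3 and irradiated 1, and, chosen after seeing the data, 190, 19 and 171 without both irradiated 2 and 3. Leaving out 1 library gave 6 to 147 calls, 1 to 11 higher and 5 to 136 lower. By library, there were 147 without irradiated 1, 14 without normal 2, 13 without irradiated 2 and 17 without irradiated 3. The cause was not tested. Library totals moved the median log2 fold change of all genes from -0.21 to 0.14, and the share of higher genes among those at an unadjusted p under 0.05 from 15.4% to 30.3%. In genes averaging 50 CPM or more it was 45.5%.

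The labels do not say that replicate numbers pair samples, so the main fit used no block. Same-numbered libraries of the groups correlated at -0.07, 0.02 and -0.05 in their deviations from the group means. These values cannot show whether samples were paired, since normal 3 and irradiated 1, alike in muscle fibre transcripts, reached only 0.09. With the replicate number as a block, 23 genes were called, 7 higher and 16 lower, the 7 among them.

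The log2 fold changes of 101 of the 111 tested genes given values kept their sign under every setting tried, and the medians of 13 of the 41 lists did. Signs turned, for causes not tested, in the following. With Col1a1 at -0.01, the value was 0.052 with relative log expression factors or DESeq2, 0.059 with upper quartiles, 0.80 with library totals, 0.016 in genes averaging 50 CPM or more, 0.40 with limma voom, 1.44 without both normal 3 and irradiated 1, and -1.11 to 1.18 with 1 library left out (above 0 without normal 3, irradiated 1 or irradiated 3). Ccl2 turned to -1.28 with the replicate block, -1.17 with limma voom, -5.66 without both irradiated 2 and 3, and ran from -2.82 (without irradiated 3) to 1.43 with 1 library left out. Ckm turned to 0.20 with the block, 0.55 when normal 3 and irradiated 1 were dropped together and 0.76 when irradiated 2 and 3 were, and ran from -2.77 to 2.70 (without normal 3) with 1 library left out. Myog turned to -0.057 with limma voom and -0.41 when normal 3 and irradiated 1 were dropped, and ran from -0.27 (without irradiated 1) to 0.70 with 1 library left out. With 1 library left out Mdm2 ran from -0.20 to 0.33 (below 0 without normal 1, irradiated 1 or irradiated 2) and Myh3 from -0.18 (without irradiated 3) to 0.84. Without both irradiated 2 and 3, Myh3 was at -1.52 and Fst at -0.31. Myh4, at -0.66, turned to 0.37 with the block, 0.13 with limma voom, 1.02 when normal 3 and irradiated 1 were dropped and 0.71 when irradiated 2 and 3 were, and ran from -2.94 to 3.27 (without normal 3) with 1 library left out. Egfl7, at -0.53, turned to 0.52 with the block and 0.92 when irradiated 2 and 3 were dropped, and ran from -3.32 to 2.60 with 1 library left out (above 0 without normal 3, and 0.060 without irradiated 3). Abcc9, at 0.45, turned to -0.49 with limma voom and ran from -9.80 (without irradiated 1) to 10.26 with 1 library left out, with -0.12 without normal 1 and -0.14 without normal 2. Detection limits genes under 5 CPM: of 1841, 1037, 1543 and 1490 had no count in irradiated 1, 2 and 3, although irradiated 2 was the deepest library of the 6.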
